A study of Mus musculus with 24 samples.

Results

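The 9 genes described here, Dazl, Ddx4, Asz1, Mael, Sycp3, Tuba3a, Tuba3b, Slc25a31 and Brdt, are germline genes of the mouse whose promoters are known to be controlled by DNA methylation. They were picked by symbol, by a rule that uses no measured value but was set with earlier results of these data known, and all 9 were found among the 37310 gene entries of each deposited table. RNA was sequenced from mouse embryonic stem (ES) cells, grown without feeder cells in serum and LIF, of 6 genotypes with 3 biological replicates each. Beside unedited cells (WT) there were cells without Smchd1 (Smchd1 KO), without Dux (Dux KO), without both of these genes (Double KO), with all 3 Tet genes knocked out (Tet-TKO) and with Smchd1 lost on top of Tet-TKO (quadKO). Each WT and Smchd1 KO replicate was sequenced in 2 technical runs, which were averaged here. Double KO, Dux KO, Smchd1 KO and WT share a table of counts per 1e6 counts (CPM), and Tet-TKO and quadKO share another that was scaled separately, so tests stay within a table. The labels do not say whether a genotype is 1 clone or several, and Tet-TKO, the control of quadKO, itself lacks the Tet genes.

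SMCHD1, related to the SMC proteins, acts on chromatin in gene silencing, DUX is a transcription factor of the 2-cell embryo, and TET enzymes oxidise 5-methylcytosine. Promoters of many germline genes are rich in CpG, carry methylation in somatic cells and lose it in primordial germ cells, where the genes come on. In ES cells such genes are also held by a Polycomb complex, PRC1.6, whose subunits E2F6, MGA and MAX bind short DNA words. Among the 9 genes, Dazl and Ddx4 encode germ cell RNA-binding proteins, and Ddx4 (Vasa) is an RNA helicase of the piRNA pathway. Asz1 and Mael encode further proteins of the piRNA pathway, which represses transposons. Sycp3 encodes a protein of the synaptonemal complex of meiotic chromosomes. Tuba3a and Tuba3b are alpha tubulins, Slc25a31 encodes the ADP/ATP carrier of testis, and Brdt encodes the bromodomain protein of spermatocytes and spermatids.

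The promoters are shown because the 9 genes moved in different directions when Smchd1 was lost in the Tet-TKO background, as described further on. Each line gives the 250 bases before the RefSeq transcription start (mouse build GRCm38.p6), 5′ to 3′ on the strand of the gene. Capitals mark the words CACGTG, an E-box of the kind bound by MAX, and GCGGGA or its reverse complement TCCCGC, of the kind bound by E2F factors. The first 3 genes fell and the last 3 rose in quadKO against Tet-TKO. The sequences of Tuba3b, Slc25a31 and Brdt are not shown. Slc25a31 holds CACGTG but was lower in every quadKO sample, so the sequences shown split more cleanly than all 9 do.
Dazl, chr17:50293621-50293870, minus strand: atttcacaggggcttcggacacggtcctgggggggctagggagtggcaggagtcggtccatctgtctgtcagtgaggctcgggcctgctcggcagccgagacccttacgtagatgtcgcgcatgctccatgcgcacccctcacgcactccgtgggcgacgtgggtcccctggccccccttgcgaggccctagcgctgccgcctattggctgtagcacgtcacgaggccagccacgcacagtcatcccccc
Asz1, chr6:18109062-18109311, minus strand: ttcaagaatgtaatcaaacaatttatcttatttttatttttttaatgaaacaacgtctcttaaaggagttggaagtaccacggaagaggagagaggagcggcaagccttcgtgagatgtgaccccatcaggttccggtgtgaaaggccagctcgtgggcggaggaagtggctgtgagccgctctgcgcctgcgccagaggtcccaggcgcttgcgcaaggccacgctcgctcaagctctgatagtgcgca
Tuba3a, chr6:125286082-125286331, minus strand: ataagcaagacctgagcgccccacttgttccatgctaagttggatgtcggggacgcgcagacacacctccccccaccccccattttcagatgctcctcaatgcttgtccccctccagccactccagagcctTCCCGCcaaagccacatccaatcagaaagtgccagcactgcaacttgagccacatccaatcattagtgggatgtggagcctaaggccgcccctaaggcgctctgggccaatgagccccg
Mael, chr1:166238745-166238994, minus strand: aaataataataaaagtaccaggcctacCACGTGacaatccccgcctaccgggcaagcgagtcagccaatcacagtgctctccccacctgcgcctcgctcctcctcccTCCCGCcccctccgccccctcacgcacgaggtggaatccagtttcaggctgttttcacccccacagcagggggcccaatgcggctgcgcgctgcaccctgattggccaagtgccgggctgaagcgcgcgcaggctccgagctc
Sycp3, chr10:88459337-88459586, plus strand: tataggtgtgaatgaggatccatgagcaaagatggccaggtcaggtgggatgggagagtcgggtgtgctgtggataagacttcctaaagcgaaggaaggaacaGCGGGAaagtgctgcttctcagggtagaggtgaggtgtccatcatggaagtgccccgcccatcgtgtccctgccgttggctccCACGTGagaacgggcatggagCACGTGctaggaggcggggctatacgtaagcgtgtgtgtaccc
Ddx4, chr13:112652311-112652560, minus strand: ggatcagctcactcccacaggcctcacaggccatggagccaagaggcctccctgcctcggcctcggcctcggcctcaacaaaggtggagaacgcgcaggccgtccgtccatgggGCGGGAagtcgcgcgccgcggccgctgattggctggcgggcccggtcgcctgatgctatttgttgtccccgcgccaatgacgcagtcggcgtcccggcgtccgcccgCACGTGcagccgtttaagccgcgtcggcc

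All 9 genes had a RefSeq promoter window of 300 bases, 250 before and 50 after the start. The number of CpG dinucleotides in it was 12 in Tuba3a, 15 in Sycp3, 16 in Tuba3b, 17 in Asz1, 22 in Slc25a31, 23 in Brdt, 24 in Mael, 28 in Dazl and 38 in Ddx4. Every window thus held more CpG than the median of 7 over 32851 RefSeq promoters of the same length, but the genes spread from the 60.4th to the 95th percentile. Observed over expected CpG ran from 0.472 in Tuba3a to 0.978 in Ddx4, against a median of 0.384 over all promoters. CACGTG, which reads the same on both strands, was found in 5 of the 9 windows and in 7.15% of all promoters. It began 29 bases before the start in Ddx4, 223 in Mael, 93 in Slc25a31 and 78 in Brdt, and Sycp3 had 2 copies, at 64 and 43 bases. GCGGGA was found on either strand in 6 of the 9 windows (Ddx4, Mael, Sycp3, Tuba3a, Tuba3b and Slc25a31) and in 19.98% of all promoters, and no copy overlapped a CACGTG. Neither word was in the windows of Dazl and Asz1. Both words contain a CpG, and all 9 windows hold more CpG than the median promoter. The shares over all promoters are thus no matched baseline, and shares for promoters of like CpG content were not computed. A match is a description of the letters and not a measured binding site, and no methylation values are among the data.

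**Figure D1:**
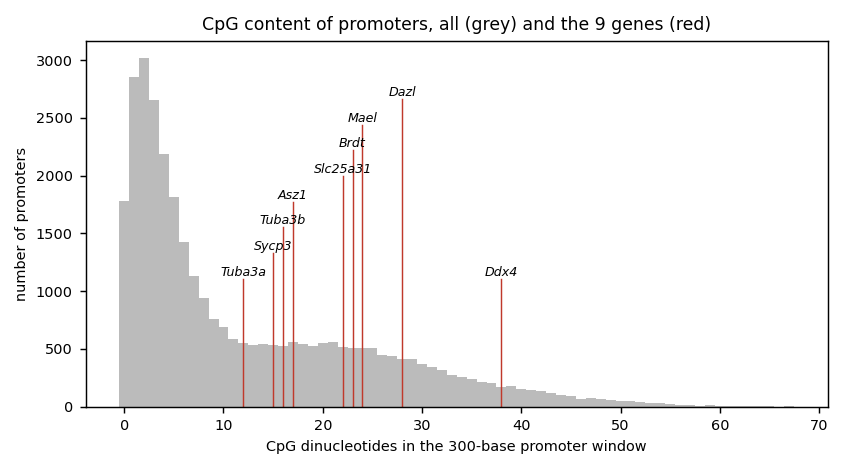
Number of CpG dinucleotides in 300-base promoter windows (x axis) against the number of promoters with that count (y axis, grey bars, 32851 RefSeq promoters), with the 9 genes as red lines whose height has no meaning. The 9 genes lie between 12 (Tuba3a) and 38 (Ddx4), all right of the median of 7.

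In units of 1e6 gene reads, the libraries held 11.4 to 74.4 in the first table and 27.3 to 34.6 in the second. The Smchd1 transcript ranged over 203 to 207 CPM in WT samples, over 46.2 to 76.5 CPM in those of Smchd1 KO, over 174 to 213 CPM in those of Dux KO and over 71.0 to 87.9 CPM in those of Double KO, and it was at 151 to 161 CPM in Tet-TKO against 12.2 to 40.02 in quadKO. It fell in Smchd1 KO vs WT (log2 change -1.79, adjusted p = 0.000395), with Double KO set against Dux KO (-1.28, adjusted p = 0.0294) and in quadKO vs Tet-TKO (-2.87, adjusted p = 0.000827). The row named Dux had at most 0.141 CPM in any WT sample and 0 to 0.447 CPM in Dux KO, so it gives little check of the Dux knockout. In Tet-TKO, Tet1 stood at 270 to 276, Tet2 at 329 to 341 and Tet3 at 43.0 to 46.0 CPM. The WT samples of the other table had 2199 to 2271, 422 to 441 and 53.8 to 54.6 CPM of these genes. Transcripts of Tet1, Tet2 and Tet3 were thus all present in Tet-TKO, and a count over a whole gene does not show which part of it was deleted. The tables were scaled separately, so the difference from WT was not tested. The ES cell markers Pou5f1 (364 to 773 CPM) and Sox2 (224 to 505 CPM) were present in every sample. Of 4 genes of meiosis, Spo11, which makes the meiotic DNA breaks, had 0 to 0.215 CPM in any sample, while Stra8 (3.36 to 37.8), Sycp1 (3.28 to 49.4) and Dmc1 (7.07 to 25.4 CPM) were present in all of them. WT and Tet-TKO replicates differed about as little as technical runs, with a noise ratio (1 for counting error alone) of 1.52 to 1.94 and 1.44 to 1.69 against 1.59 to 1.89 between runs of a WT replicate. Their p-values may therefore measure technical spread only. Replicates of Dux KO (16.4 to 31.6) and Double KO (17.4 to 32.3) were far apart. In 4 samples (Smchd1 KO 2, Dux KO 2, Dux KO 3 and Double KO 3) the median gene of at least 1 chromosome was shifted by more than 0.3 on the log2 scale. Where the 9 genes lie on those chromosomes, the shift is given with the result.

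In WT ES cells the 9 genes covered a wide range of levels. Per kb of annotated exon, Tuba3a was highest with 23.3 ± 0.429 CPM per kb (SD, n = 3, as for every level given with ±), followed by Ddx4 with 14.7 ± 0.216 and Sycp3 with 10.7 ± 0.196. Mael had 5.58 ± 0.172, Dazl 3.53 ± 0.251 and Slc25a31 1.68 ± 0.0942 CPM per kb. At the low end, Brdt had 0.428 ± 0.0342, Tuba3b 0.395 ± 0.100 and Asz1 0.156 ± 0.0397 CPM per kb. Brdt and Tuba3b did not differ beyond their spread, while the other neighbours in this order did. Ddx4 transcripts were thus plentiful in WT ES cells and Asz1 transcripts scarce, at 92 reads over all WT runs. Tuba3a and Tuba3b share 35.3% and 29.5% of their 50-base words with other genes, mainly each other and Gm5366, so reads could be split between them and their values are uncertain. Sycp3 lies over the antisense gene Chpt1 along 52.2% of its exon bases and shares 43.0% of its 50-base words with it. Whether strand was used in counting is not given in the sources used here, so Sycp3 and Chpt1 reads cannot be told apart there. The other 6 genes shared no such word with another gene. In bulk samples, fewer cells that express a gene and less RNA per cell cannot be told apart.

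**Figure D2:**
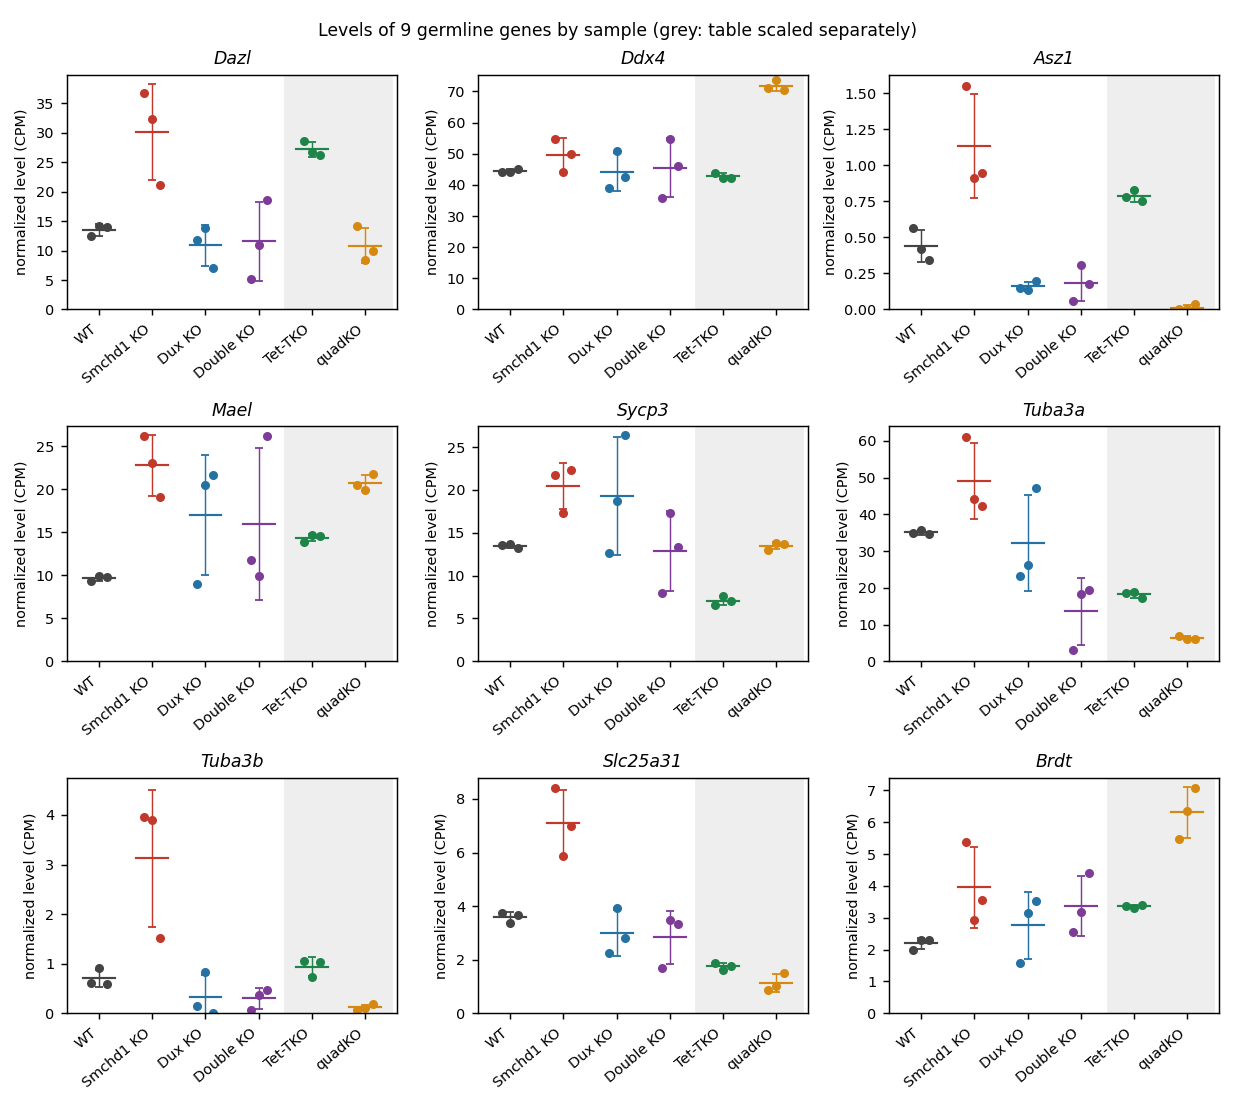
Normalized level (CPM, y axis from 0) of each of the 9 genes in every biological sample (points), by genotype, with the mean (line) and SD (bar) over 3 samples. The grey area holds Tet-TKO and quadKO, whose table was scaled separately. Dazl drops from 26.2 to 28.7 CPM in Tet-TKO to 8.48 to 14.2 CPM in quadKO, while Ddx4 goes from 42.2 to 43.8 up to 70.5 to 73.5 CPM.

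What Smchd1 loss alone does to these genes was read from Smchd1 KO and WT. All 9 genes had a higher mean in Smchd1 KO, and for 8 of them, all but Ddx4, every Smchd1 KO sample lay above every WT sample. The same was true of 28.2% of the 16200 genes tested. None of the 9 passed the test in the limma fit to all 4 genotypes of the table, which called 0.889% of genes (adjusted p under 0.05, two-sided, Benjamini-Hochberg over all genes). Their log2 changes ran from 0.15 to 1.52 with a median of 0.78, against 0.00 over all genes tested. Dazl stood at 12.4, 14.1 and 13.9 CPM in the 3 WT samples and at 36.8, 32.4 and 21.1 CPM in the 3 Smchd1 KO samples. Its lowest Smchd1 KO sample thus lay well above its highest WT sample, with a log2 change of 1.09 ± 0.38 (SE, as for every log2 change given with ±; adjusted p = 0.202). Ddx4 had 44.1, 44.0 and 45.2 CPM in WT and 54.9, 44.0 and 49.9 CPM in Smchd1 KO, and these ranges overlap (0.15 ± 0.16, adjusted p = 0.671).

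The piRNA pathway genes Asz1 and Mael showed the same order of samples at very different levels. Mael had 9.33, 9.87 and 9.82 CPM in WT and 26.2, 23.1 and 19.07 CPM in Smchd1 KO (1.18 ± 0.36, adjusted p = 0.154). Asz1 had 0.563, 0.419 and 0.342 CPM in WT and 1.55, 0.910 and 0.943 CPM in Smchd1 KO (0.78 ± 0.20, adjusted p = 0.105). Asz1 passed the filter on low values (0.5 CPM in 3 samples) through all 3 Smchd1 KO samples and 1 WT sample, so the filter favoured a higher value in Smchd1 KO. Sycp3, the meiotic chromosome gene, had 13.6, 13.7 and 13.2 CPM in WT and 21.8, 17.3 and 22.3 CPM in Smchd1 KO (0.57 ± 0.28, adjusted p = 0.333). Of the alpha tubulins, Tuba3b had 0.601, 0.906 and 0.596 CPM in WT and 3.95, 3.90 and 1.53 CPM in Smchd1 KO (1.52 ± 0.39, adjusted p = 0.0994), the largest difference of the 9. Its lowest Smchd1 KO sample was still above every WT sample. Tuba3a had 34.9, 35.8 and 34.6 CPM in WT and 61.0, 44.1 and 42.2 CPM in Smchd1 KO (0.46 ± 0.51, adjusted p = 0.690). Slc25a31 had 3.73, 3.35 and 3.66 CPM in WT and 8.39, 5.89 and 6.98 CPM in Smchd1 KO (0.88 ± 0.26, adjusted p = 0.153). For Brdt the first Smchd1 KO sample was the highest, with 5.39 CPM beside 2.93 and 3.54 in the others, against 1.99, 2.29 and 2.29 CPM in WT (0.69 ± 0.29, adjusted p = 0.272).

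Whether these differences passed depended on how the spread was estimated. In a limma fit to WT and Smchd1 KO alone, 8 of the 9 rose, all but Ddx4, where 42.3% of all genes were called in either direction and 20.6% rose. DESeq2 on recovered reads called Asz1, Brdt, Dazl, Mael, Slc25a31 and Tuba3b higher, 6 of 9, where 3.96% of all genes rose. edgeR on the same reads called 0 of 9, where 1.42% of all genes were called, and at an unadjusted p under 0.05 the limma fit to all 4 genotypes gave 6 of 9, as it did for 16.4% of all genes. The median gene of chromosome 6, which holds Asz1, Tuba3a and Tuba3b, was at -0.45 on the log2 scale in Smchd1 KO 2. With each chromosome's median set to 0 these genes had log2 changes of 0.94, 0.61 and 1.67 (adjusted p = 0.0655, 0.588 and 0.133 in limma). With the 4 shifted samples left out, 5 of 9 rose (Asz1, Brdt, Mael, Slc25a31 and Tuba3b), where 7.25% of all genes did. Genes of the 2-cell embryo moved with these values. Of 12 such markers tested, 11 rose in Smchd1 KO, and the summed level of the 11 markers other than Eif1a, left out after its values were seen, was 12.0 to 14.6 CPM in WT and 56.3 to 118 CPM in Smchd1 KO. The summed level of 8 fibroblast markers was 20.4 to 22.6 CPM in WT and 29.7 to 58.1 in Smchd1 KO, and that of 4 testis somatic markers was 5.54 to 5.74 and 6.49 to 7.57 CPM. No fibroblast or testis somatic marker passed the test, and the part of any of these in the result was not tested.

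Dux KO and Double KO were each compared with WT. None of the 9 genes passed in Dux KO vs WT, where 3.98% of genes did, and none passed in Double KO vs WT, where 1.57% did (limma; 1 and 2 of 9 at an unadjusted p under 0.05, where 26.0% and 23.1% of all genes were). In Dux KO, Asz1 alone lay below WT in every sample, at 0.149, 0.137 and 0.197 CPM from 7 reads in all (-0.50 ± 0.20, adjusted p = 0.146; 23.1% of genes lay below in every sample). Mael spread from 9.02 CPM in Dux KO 1 to 20.47 and 21.6 CPM in the other samples, on both sides of the WT range (0.69 ± 0.36, adjusted p = 0.242). In Double KO, Asz1 (0.0619, 0.306 and 0.178 CPM), Tuba3a (3.16, 18.3 and 19.5 CPM) and Tuba3b (0.0619, 0.367 and 0.475 CPM) lay below WT in every sample, as 21.0% of genes did. Mael (11.8, 9.97 and 26.1 CPM) and Brdt (2.54, 3.18 and 4.40 CPM) lay above WT in every sample, as 15.3% did. Tuba3a had the largest of these differences (-1.68 ± 0.51, adjusted p = 0.0925). Its first Double KO sample was far below the other samples.

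Dazl, Ddx4, Sycp3 and Slc25a31 overlapped WT in both genotypes. Dazl had 11.8, 13.9 and 7.08 CPM in Dux KO and 5.20, 10.9 and 18.5 CPM in Double KO. Ddx4 ran from 39.1 to 51.0 CPM in Dux KO and from 35.9 to 54.7 CPM in Double KO. Sycp3 ran from 12.7 to 26.4 and from 7.98 to 17.3 CPM in these genotypes, and Slc25a31 from 2.24 to 3.91 and from 1.67 to 3.49 CPM. Replicates of these genotypes lay several times further apart than those of WT for the same genes. The chromosomes of Mael (1) and of Asz1, Tuba3a and Tuba3b (6) were among those shifted. The median gene of chromosome 1 was 0.49 above WT on the log2 scale in Double KO 3, the sample with 26.1 CPM of Mael, and that of chromosome 6 was at -0.40 in Dux KO 2 and -0.46 in Double KO 3. Double KO vs Dux KO asked for the effect of Smchd1 loss where Dux was absent. None of the 9 passed (limma; 1 at an unadjusted p under 0.05, where 9.77% of all genes were), and 0.0123% of all genes did. Their log2 changes there had a median of -0.04, and Tuba3a alone was lower in every Double KO sample (-1.49 ± 0.51, adjusted p = 0.350; 3.1% of genes were).

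Double KO was compared with Smchd1 KO for the effect of Dux loss in cells without Smchd1. Of the 9 genes, 5 fell and none rose, where 2.98% of all genes fell. They were Tuba3a (-2.14 ± 0.51, adjusted p = 0.0392), Tuba3b (-2.13 ± 0.39, adjusted p = 0.0144), Dazl (-1.47 ± 0.38, adjusted p = 0.0490), Asz1 (-1.25 ± 0.20, adjusted p = 0.00732) and Slc25a31 (-1.23 ± 0.26, adjusted p = 0.0294). The median log2 change of the 9 was -1.23, against -0.03 over all genes. In mean level, Tuba3b went from 3.12 ± 1.39 CPM in Smchd1 KO to 0.301 ± 0.214 in Double KO, Dazl from 30.1 ± 8.13 to 11.6 ± 6.69, and Slc25a31 from 7.09 ± 1.26 to 2.83 ± 1.01. Every Double KO sample was below every Smchd1 KO sample for these 5 and for Sycp3, as for 16.7% of all genes. Sycp3 (-0.70 ± 0.28, adjusted p = 0.150), Mael (-0.62 ± 0.36, adjusted p = 0.304), Brdt (-0.19 ± 0.29, adjusted p = 0.710) and Ddx4 (-0.14 ± 0.16, adjusted p = 0.617) did not pass.

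These 5 calls were sensitive to single samples. Leaving out 1 sample of Smchd1 KO, Double KO or WT at a time gave 1 to 6 of 9 past the threshold, and the share of all genes called moved with it, from 0.611% to 15.0%. Asz1 alone was called each time, including when a Dux KO sample was left out. It passed the filter on low values through all 3 Smchd1 KO samples, 1 WT sample and no Double KO sample, so the filter favoured a fall here. Without Smchd1 KO 1 or Smchd1 KO 2 the count was 1 gene (0.611% and 1.02% of all genes), and without Smchd1 KO 3, Double KO 1 or any 1 WT sample it was 2 (0.833% to 1.40% of all genes). Without Double KO 3, Mael also fell (-1.03, adjusted p = 0.0491), which made 6, where 15.0% of all genes were called. On chromosome 6, where the median gene was at -0.45 in Smchd1 KO 2 and -0.46 in Double KO 3, Asz1, Tuba3a and Tuba3b still fell with each chromosome's median set to 0, by 1.24, 2.13 and 2.12 (adjusted p = 0.0115, 0.0424 and 0.0328). Tuba3a fell by 1.34 on the log2 scale when Double KO 1, with 3.16 CPM, was left out (adjusted p = 0.0378). A limma fit to the 2 genotypes alone called 0 of 9, where 0.747% of genes were called. edgeR called 4 lower (2.87% of genes) and DESeq2 5 (7.46%). Of the 12 markers of the 2-cell list, 11 fell here, and the summed level of the 11 other than Eif1a was 0.248 to 0.594 CPM in Double KO. Markers of other states moved as well. Of 10 ES cell identity genes 1 fell, Tdgf1, a co-receptor of Nodal (-0.98, adjusted p = 0.0218), and their summed level was 4592 to 5087 CPM in Smchd1 KO and 2865 to 4241 CPM in Double KO. Of 6 fibroblast markers tested 1 rose, the collagen gene Col3a1 (1.77, adjusted p = 0.0256). None of 3 trophoblast markers tested passed, and the sum over the 4 with rows was 74.5 to 171 CPM in Smchd1 KO and 136 to 697 CPM in Double KO. The part of these markers in the fall of the 5 genes was not tested. The difference between the Smchd1 effects with and without Dux (the interaction) was negative for all 9 genes, with a median log2 value of -1.13 against -0.02 over all genes. None passed in the limma fit (adjusted p from 0.183 to 0.809, 6 of 9 at an unadjusted p under 0.05 beside 17.4% of all genes), where 0.512% of genes did, so a Smchd1 effect that differs with Dux was not shown for them.

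**Figure D3:**
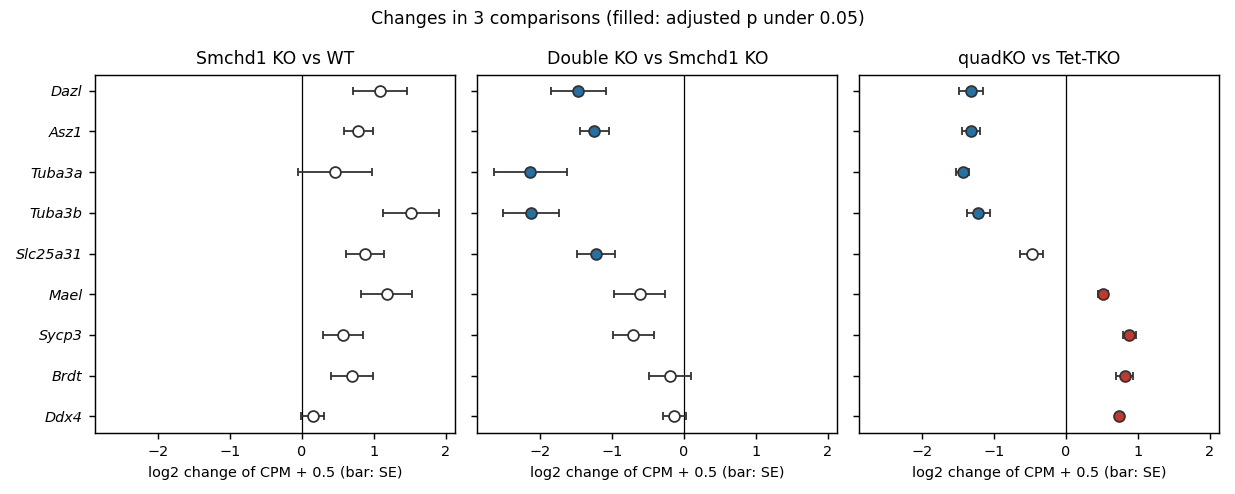
Log2 change of CPM + 0.5 (x axis, bar: SE) of the 9 genes in 3 comparisons. Filled points passed at an adjusted p under 0.05 in limma, red for higher and blue for lower. All 9 lie right of 0 in Smchd1 KO vs WT with none filled, 5 are filled left of 0 in Double KO vs Smchd1 KO, and quadKO vs Tet-TKO has 4 filled on each side. Of those on its left, Asz1 and Tuba3b passed the filter on low values through Tet-TKO alone and could only come out lower.

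QuadKO was compared with Tet-TKO for the effect of Smchd1 loss in cells that lack the Tet genes. Here 8 of the 9 genes passed, 4 in each direction, in a comparison where 17.1% of the 14920 genes tested rose and 20.6% fell. Dazl, Asz1, Tuba3a and Tuba3b fell, and Ddx4, Mael, Sycp3 and Brdt rose. Asz1 and Tuba3b passed the filter on low values through Tet-TKO alone. They could only come out lower, so they add no support to the counts of lower genes here. For all 9, Slc25a31 included, the samples of the genotypes did not overlap, with 4 genes higher in every quadKO sample (25.1% of all genes were) and 5 lower (28.2%). Of the 3 genes of the piRNA pathway, Ddx4 and Mael thus rose and Asz1 fell, though the filter left Asz1 no other direction, as given below. In the pair of genes for germ cell RNA-binding proteins, Dazl fell and Ddx4 rose.

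Dazl had 28.7, 26.7 and 26.2 CPM in Tet-TKO and 14.2, 8.48 and 9.87 CPM in quadKO (-1.32 ± 0.17, adjusted p = 0.000862). Ddx4 had 43.8, 42.2 and 42.3 CPM in Tet-TKO and 71.0, 73.5 and 70.5 CPM in quadKO (0.74 ± 0.05, adjusted p = 6.13e-05). So Dazl was lower and Ddx4 higher in every quadKO sample, each with a gap between the genotypes wider than the range within them. Asz1 had 0.780, 0.830 and 0.752 CPM in Tet-TKO and 0, 0 and 0.0359 CPM in quadKO (-1.33 ± 0.13, adjusted p = 0.000255). A single read was counted for it over the 3 quadKO libraries and 73 over the 3 Tet-TKO libraries. After scaling, its level in Tet-TKO was 67.6 times that in quadKO, with an exact 95% interval of 11.8 to 2.71e+03 that covers counting error only. Asz1 passed the filter through Tet-TKO alone, and neither its p-value nor this interval allows for that selection. Mael, in the same pathway, had 13.9, 14.7 and 14.5 CPM in Tet-TKO and 20.48, 19.9 and 21.7 CPM in quadKO (0.51 ± 0.07, adjusted p = 0.00116).

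Sycp3 went from 6.55, 7.68 and 7.06 CPM in Tet-TKO to 13.0, 13.8 and 13.7 CPM in quadKO (0.88 ± 0.09, adjusted p = 0.00033). Tuba3a had 18.6, 18.9 and 17.1 CPM in Tet-TKO and 6.95, 6.01 and 6.21 CPM in quadKO (-1.44 ± 0.09, adjusted p = 6.13e-05). Tuba3b had 1.05, 0.726 and 1.04 CPM in Tet-TKO and 0.0668, 0.106 and 0.179 CPM, or 10 reads, in quadKO (-1.22 ± 0.15, adjusted p = 0.000874). Both tubulin genes were thus well below every Tet-TKO sample. Asz1 and Tuba3b passed the filter through Tet-TKO alone, so those 2 had to come out lower, and the count of genes that fell is no support by itself. Brdt had 3.36, 3.32 and 3.385 CPM in Tet-TKO and 5.48, 6.36 and 7.07 CPM in quadKO (0.81 ± 0.12, adjusted p = 0.00144). Slc25a31 had 1.87, 1.62 and 1.76 CPM in Tet-TKO and 0.869, 1.03 and 1.51 CPM in quadKO, and just missed the threshold (-0.48 ± 0.16, adjusted p = 0.0513). Its highest quadKO sample came close to the Tet-TKO range.

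In order of level per kb of exon, the 9 genes were led in quadKO by Ddx4 (23.8 ± 0.540), Mael (11.9 ± 0.544) and Sycp3 (10.7 ± 0.335 CPM per kb). In Tet-TKO the leading genes were Ddx4 (14.2 ± 0.294), Tuba3a (12.1 ± 0.649) and Mael (8.29 ± 0.232 CPM per kb). Tuba3a thus stood above Mael and Sycp3 in Tet-TKO and, at 4.23 ± 0.328 CPM per kb, below both in quadKO. At the low end Asz1 was last in both, with 0.278 ± 0.0139 and 0.00423 ± 0.00733 CPM per kb. The median gene of chromosome 6, which holds Asz1, Tuba3a and Tuba3b, was at -0.21, -0.28 and -0.26 on the log2 scale in the 3 quadKO samples relative to Tet-TKO. With each chromosome's median set to 0, Tuba3a still fell by 1.19 (adjusted p = 9.57e-05). Asz1 was lower by 1.08 (adjusted p = 0.000734) and Tuba3b by 0.97 (adjusted p = 0.00305). Asz1 and Tuba3b had passed the filter through Tet-TKO alone, so their direction is no check. Leaving out any 1 sample of quadKO or Tet-TKO gave 8 or 9 genes past the threshold. With all samples kept, 17.1% of all genes rose and 20.6% fell.

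The CACGTG word followed the directions of the 8 genes that passed in quadKO. It was in the promoter windows of 4 of the 4 genes that rose (Ddx4, Mael, Sycp3 and Brdt), in 0 of the 4 that fell and in that of Slc25a31, which did not pass but was lower in every quadKO sample and so goes against the split. GCGGGA was in 3 of the 4 that rose and 2 of the 4 that fell. Of the 4 that fell, Asz1 and Tuba3b passed the filter through Tet-TKO alone and had to come out lower. Tuba3a and Tuba3b also share transcript sequence, so they are not separate cases. Both words and this split were chosen after values and sequences had been seen, the genes are few, and no test was made. CpG count did not separate the directions in the same way, with 15 to 38 among the genes that rose and 12 to 28 among those that fell.

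Markers of other states also moved between Tet-TKO and quadKO, in a comparison where 17.1% of all genes rose and 20.6% fell. Of 10 ES cell identity genes 2 rose and 6 fell, with Nanog, a core pluripotency factor, going from 265 ± 11.8 to 52.4 ± 18.8 CPM (-2.40, adjusted p = 0.00038). All 3 trophoblast markers tested rose, and the sum over the 4 with rows was 170.5 to 178 CPM in Tet-TKO and 234 to 454 CPM in quadKO. Fibroblast markers rose in 3 of 5 tested, and the sums over all 8 were 18.7 to 19.02 and 29.0 to 33.2 CPM. Of 10 markers of the 2-cell list tested 1 fell, and the summed level of the 11 with rows other than Eif1a was 34.99 to 36.4 CPM in Tet-TKO and 31.5, 9.37 and 43.4 CPM in the quadKO samples. Dazl was also lowest in the quadKO sample with 9.37 CPM, at 8.48 CPM against 9.87 in the next lowest, a small gap. The other quadKO samples did not keep this order, with Dazl at 14.2 CPM beside 31.5 and at 9.87 CPM beside 43.4. The 4 testis somatic markers summed to 1.74 to 2.04 CPM and 1.36 to 2.02 CPM. The part of these marker changes in the results on the 9 genes was not tested.

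A list of 60 other germline genes with CpG-rich promoters, of which 58 have rows, gives the setting. In Smchd1 KO vs WT none of the 54 tested passed, 46 had a positive log2 change, and the median was 0.35 against 0.00 over all genes. Stag3, a meiotic cohesin subunit and the most abundant of them, had 111 ± 3.62 CPM in WT and 177 ± 20.6 in Smchd1 KO (adjusted p = 0.345). In Double KO vs Smchd1 KO 6 fell and 1 rose, with a median of -0.36, where 2.98% of all genes fell. The number of listed genes past the threshold in this comparison was not stable. It moved in 12 alternative settings of the processing and stayed near the reported count in 8. Smc1b, another meiotic cohesin subunit, fell by 1.65 on the log2 scale (116 ± 10 to 44.2 ± 32.7 CPM, adjusted p = 0.0392), and Rad21l rose (0.64, adjusted p = 0.0447), from 0.181 to 0.215 CPM up to 0.557 to 0.612 CPM. Rad21l reached the filter of 0.5 CPM in all 3 Double KO samples and in no WT or Smchd1 KO sample, so the filter favoured its rise. In quadKO vs Tet-TKO, of 51 tested, 22 fell and 12 rose, where 20.6% of all genes fell and 17.1% rose, with a median of -0.24 against -0.01 over all genes. The largest falls were those of Fkbp6, a piRNA pathway co-chaperone (15.8 ± 0.201 to 0.988 ± 0.841 CPM, -3.66, adjusted p = 0.000704), and Rpl39l, a ribosomal protein gene of testis (9.29 ± 0.966 to 0.633 ± 0.309 CPM, -3.14, adjusted p = 7.57e-05). The largest rises were those of Tdrd6, a Tudor protein (1.06, adjusted p = 0.0311), and Rad21l (1.02, adjusted p = 0.00257).

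**Figure D4:**
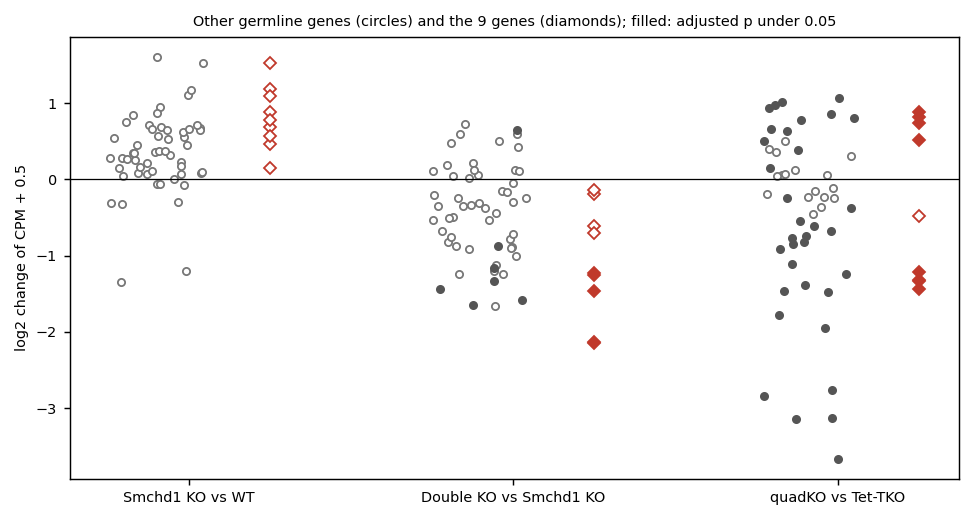
Log2 change of CPM + 0.5 (y axis) in 3 comparisons for the other germline genes tested (grey circles, 54, 54 and 51 genes) and the 9 genes (red diamonds). Filled symbols passed at an adjusted p under 0.05 in limma. In quadKO vs Tet-TKO filled symbols lie on both sides of 0 down to -3.66 for Fkbp6, while in Smchd1 KO vs WT none is filled.

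Transcripts of the known regulators of these promoters were present in all genotypes. Of 21 genes of PRC1.6 and of H3K9 methylation, none passed in Smchd1 KO vs WT and 6 fell in quadKO vs Tet-TKO, by small amounts, in a comparison where 20.6% of all genes fell. Among them were Rybp, a PRC1 subunit (108 ± 1.97 to 84.3 ± 1.24 CPM, -0.35, adjusted p = 0.000522), and Hdac2, a histone deacetylase (-0.37, adjusted p = 0.00365). Of 15 DNA methylation enzymes and readers, none passed in Smchd1 KO vs WT, and in quadKO vs Tet-TKO 8 fell and 2 rose, beside 20.6% and 17.1% of all genes. Dnmt3a, which encodes a de novo methyltransferase, had 389 ± 3.31 CPM in Tet-TKO and fell to 177 ± 48.4 CPM in quadKO (-1.18, adjusted p = 0.00199). Its cofactor Dnmt3l had 649 ± 7.79 CPM and fell to 350 ± 54.4 CPM (-0.90, adjusted p = 0.000521). Dnmt3b rose from 500 ± 10.2 to 570 ± 25.8 CPM (0.19, adjusted p = 0.0101). In Dux KO vs WT, 1 gene of each list fell, Dnmt3a from 371 ± 3.75 to 152 ± 29.6 CPM (-1.30, adjusted p = 0.00655) and Tfdp1, a partner of E2F factors, from 220.4 ± 4.06 to 132 ± 29.2 CPM (-0.76, adjusted p = 0.0300).

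Among all genes tested in the first table, those whose levels went most alike with the 2 members of highest level were named as a description. For Ddx4 they were Spats1 (Pearson r = 0.948 over 12 samples), Best2 (0.941) and Vil1 (0.910). For Tuba3a they were Snx3 (0.974), Mzt1 (0.971) and Tspyl1 (0.967). These samples share genotypes and replicates, so the values carry no test.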

How the data were processed

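Total RNA of mouse ES cells was sequenced after ribosomal depletion (KAPA RNA HyperPrep with RiboErase, per the labels' protocols). Per the submitters' processing notes the tools were Trim Galore, STAR 2.5.1 and limma 3.38.2 with build mm9. The read counter, its strand setting and the annotation are not given in the sources used here. What the authors deposited is a normalized signal for each gene, named CPM, in 2 tables scaled separately. Whole reads were recovered from the signal, with 100% of values under 200 reads within 0.1 read of a whole number. 3 columns under the WT name in the second table match no sample and were not used, so WT was not compared with Tet-TKO or quadKO. The 6 Smchd1 KO columns name no replicate. They were joined into 3 pairs of runs by their noise ratio (1.36 to 1.69 within and 3.34 to 13.6 between pairs), and the numbers 1 to 3 follow column order.

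Runs were averaged. The filter asked for 0.5 CPM or more in 3 or more samples (16200 and 14920 genes kept), and log2(CPM + 0.5) was fitted with limma 3.58.1 in R 4.3.3 (intensity trend, all genotypes of a table together). Fold changes on this scale understate those of low genes. edgeR 4.0.16 and DESeq2 1.42.0 were run on recovered reads as alternatives, and the limma test was tested on simulated data. Promoters and exon lengths come from RefSeq (GRCm38.p6) and GENCODE M21 on GRCm38, matched by symbol or gene ID. The 9 genes, the gene lists and the tests were chosen with earlier results of these data known. Named genes of a list are the 2 highest and 2 lowest among those that passed or, where none passed, the most abundant, and the text gives some of these. The samples were not treated as paired by replicate number.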

Additional observations from a re-analysis of the deposited data

Results flagged for a closer look

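In 5 genes the samples moved without overlap in opposite directions when Smchd1 was lost in WT and in Tet-TKO cells, higher in every Smchd1 KO sample than in WT and lower in every quadKO sample than in Tet-TKO. Dazl had a log2 change of 1.09 in Smchd1 KO vs WT and -1.32 in quadKO vs Tet-TKO. For Asz1 these were 0.78 and -1.33, for Tuba3a 0.46 and -1.44, for Tuba3b 1.52 and -1.22, and for Slc25a31 0.88 and -0.48. None of these passed in Smchd1 KO vs WT, and Slc25a31 passed in neither. Of all genes, 28.2% were higher in every Smchd1 KO sample and 28.2% were lower in every quadKO sample. The share that did both was not computed, so it cannot be told whether a count of 5 stands apart from other genes. Asz1 and Tuba3b passed the filter beside quadKO through Tet-TKO alone, so they had to come out lower there. For Asz1 the filter also favoured a higher value in Smchd1 KO. The difference between the backgrounds was not tested, since the tables were scaled separately.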

How the results depend on the processing

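Of 7 counts of the 9 genes past the threshold, 158 alternative values stayed within 1.5 times the reported count and 20 did not. In Smchd1 KO vs WT the count of 0 became 8 in the fit to 2 genotypes (42.3% of all genes called) and 9 with array quality weights (57.4%). It became 6 with DESeq2 (6.68%) and 5 without the 4 samples with a chromosome shift (17.0%), an alternative chosen after seeing the data. In Dux KO vs WT it became 1 with array weights (Mael), where 39.7% of all genes were called. In Double KO vs WT it became 1 (Tuba3a) with array weights (15.1% of all genes called), with DESeq2 (12.4%) and without the 4 shifted samples (41.7%). It was 0 to 1 with samples left out, the 1 being Tuba3a without Double KO 3 (18.6%). In Double KO vs Smchd1 KO the count of 5 became 2 with no filter (Asz1 and Tuba3b), where 2.11% of all genes were called. It became 2 with a filter of 2 CPM, which drops those genes (4.61%). In the fit to 2 genotypes it was 0 (0.747%), and over samples left out it was 1 to 6. The interaction count of 0 became 6 with array weights (13.8% of all genes called). In quadKO vs Tet-TKO the count was 8 to 9 with samples left out, where 17.1% of all genes rose and 20.6% fell with all samples kept. The cause of these shifts was not tested. Directions reversed for Ddx4 in Double KO vs Smchd1 KO without Double KO 1 (0.023, in a range of -0.28 to 0.023 over samples left out), for Brdt there without Smchd1 KO 1 (0.028, in a range of -0.38 to 0.028), and for Mael in Dux KO vs WT without the 4 shifted samples (-0.10). None of these 3 had passed.

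The samples were not treated as paired by replicate number (r from -0.135 to 0.469 between same-numbered samples, over 0.1 in 4 of 12 pairs). The highest r was between Dux KO 2 and Double KO 2, while Dux KO 3 and Double KO 1 had 0.199. A partial pairing among WT, Dux KO and Double KO is thus not excluded. With a replicate block, 0 of the 9 genes passed in Dux KO vs WT, Double KO vs WT and Double KO vs Dux KO. Only 0.198%, 0.154% and 0.0123% of all genes were called there, so these counts say little about the 9. In quadKO vs Tet-TKO 8 passed with the block, where 17.1% of all genes rose and 20.6% fell without it. No paired analysis was possible for Smchd1 KO because its columns carry no replicate number. Tet-TKO and quadKO were not compared with WT, so those alternatives were not run. Depth limits Asz1 and Tuba3b most, with 7 and 14 reads in Dux KO and 1 and 10 in quadKO.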

Other observations

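Genes of germ cell specification, which act before the 9 genes come on, were described for context. Of 9 tested, none passed in Smchd1 KO vs WT. In quadKO vs Tet-TKO 3 fell and 1 rose, where 20.6% of all genes fell and 17.1% rose, so these few genes give no count that stands apart. Prdm14, a regulator of primordial germ cells and of the naive state, fell from 9.12 ± 0.337 to 1.72 ± 0.712 CPM (limma log2 change -2.18, adjusted p = 0.000476). Kit, the receptor of stem cell factor, fell from 27.0 ± 0.131 to 14.5 ± 2.90 CPM (-0.90, adjusted p = 0.00182). Ifitm3, an early germ cell surface protein, rose from 147 ± 1.47 to 198 ± 40.6 CPM (0.41, adjusted p = 0.0376).

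Widely expressed relatives of the testis-type genes were measured as well, in quadKO vs Tet-TKO, where 20.6% of all genes fell. Of 5 other alpha tubulin genes tested, 2 fell in quadKO vs Tet-TKO, Tuba4a by 0.20 and Tuba1b by 0.17 on the log2 scale (adjusted p = 0.00593 and 0.0164), beside -1.44 for Tuba3a. Both other ADP/ATP carriers fell, Slc25a5 by 0.50 (adjusted p = 0.00019) and Slc25a4 by 0.48 (adjusted p = 0.000128), beside -0.48 for Slc25a31. The differences between relatives were not tested.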
